A study of Caenorhabditis elegans with 8 samples.

Results

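The eggshell and yolk uptake genes of Caenorhabditis elegans described here are perm-1, perm-2, perm-4, perm-5, cbd-1, chs-1, egg-1, egg-3 and rme-2. They were chosen by name, as the probe sets whose annotated gene symbol is one of these, and number 9 of 17118 genes and 15 of 22548 probe sets on the array. All 9 were measured, perm-4 by 4 probe sets, perm-2, perm-5 and cbd-1 by 2 each, and the others by 1 each.

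All nematodes were of strain JK1107, genotype glp-1(q224) III, a temperature-sensitive mutant of the Notch receptor that keeps germ cells dividing. RNA was taken from 3 pools of about 5000 embryos at various stages, released by bleach and sodium hydroxide from adults grown at 15°C, from 3 pools of young adults at day 1 and from 2 pools of aging adults at day 6 of adulthood. The adult pools held 3000 to 5000 nematodes, hatched overnight at 20°C from eggs of parents kept at 15°C and then raised at 25°C so that the germ line did not proliferate, and the aging adults were moved to new plates every 2 days. These pool sizes and intervals are those of the labels, whereas the study's methods give smaller pools and a daily transfer. Each pool was hybridized to 1 Affymetrix C. elegans GeneChip, whose values measure pools of whole animals or eggs, so that fewer cells of a type and less RNA per cell cannot be told apart. Life stage, rearing temperature and the isolation step differ together between embryos and adults and cannot be told apart either.

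The C. elegans oocyte takes up yolk through a receptor on its surface, and after fertilization a layered eggshell surrounds the embryo. An outer vitelline layer, a chitin layer and a proteoglycan layer are followed by an inner permeability barrier that seals the embryo from small molecules. Most of the parts are made in or by the oocyte, and yolk proteins are made in the adult intestine and carried to it.

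The arrays differed in scale. Median intensities ran between 56.2 and 64.2 on embryo arrays and between 19.1 and 21.9 on those of young adults, and were 36.9 and 32.4 for the aging pools, and each array was divided by its own median before the tests. An array's noise level was set so that 95% of its negative values are no larger in size, which gave levels of 24.4 to 27.7 for embryos, 28.7 to 35.04 for young adults and 33.8 and 29.5 for aging adults. In units of the array median this was 0.390 to 0.439 for embryos, 1.37 to 1.68 for young adults and 0.911 to 0.917 for aging adults, so that a dim gene could pass it in embryos at a normalized level that lies under it in adults. Where no probe set of a gene passed the noise level on any array of a group, the fold change is given as a lower bound, the brighter group's mean over the noise level of the dimmer group. It is given after division by the array median and, because the scale matters, on the deposited scale without it. The median log2 difference of all genes was 0.38 after scaling and -1.19 on the deposited scale in young adults against embryos, 0.45 and -0.37 in aging adults against embryos, and -0.01 and 0.74 in aging against young adults.

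The 9 genes fell into 3 patterns. Of these genes 6, cbd-1, chs-1, perm-1, egg-1, egg-3 and rme-2, were above the noise level on every embryo array and on no adult array, a pattern of 11.6% of all genes. The vitelline layer genes perm-2 and perm-4 had the opposite pattern, found in 2.9% of all genes, with adult intensities of 4147 or more on every working probe set and, by the gene's median over probe sets, no embryo array above noise. The last, perm-5, passed the noise level on all 8 arrays, as did 30.1% of all genes, and was the 1 member higher in aging than in young adults with both groups measurable.

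**Figure D1:**
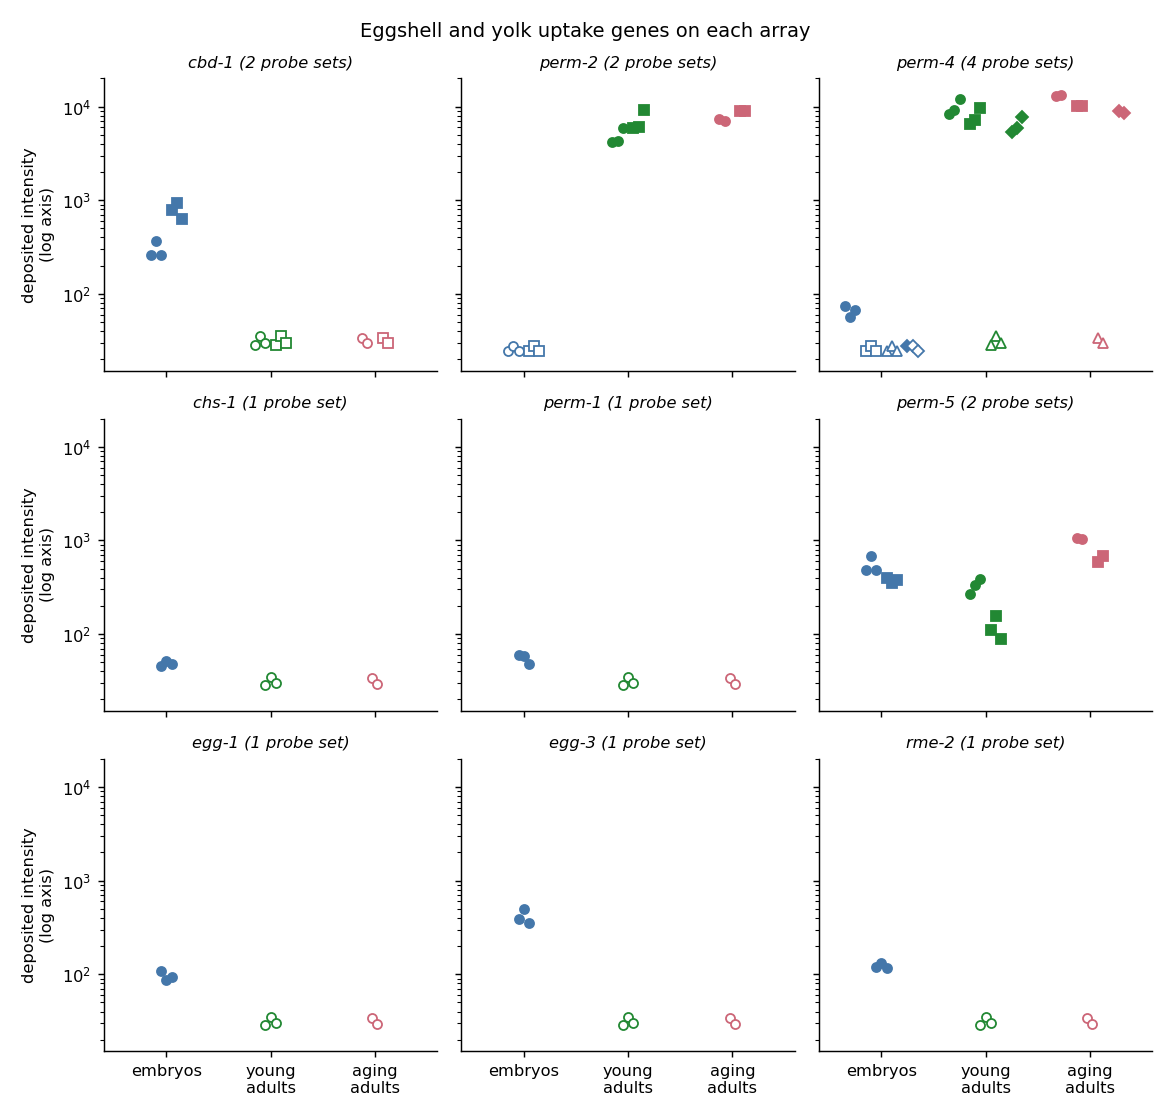
Deposited intensity (log axis) of each probe set of the 9 genes on each array, by stage; each point is 1 array, and each symbol shape within a panel is 1 probe set. Open symbols stand at the array's noise level for values below it: cbd-1, chs-1, perm-1, egg-1, egg-3 and rme-2 are filled in embryos alone, perm-2 and 3 probe sets of perm-4 read 4147 or more in adults, and perm-5 is filled in all 3 stages.

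The vitelline layer, the outermost layer of the eggshell, holds the proteins of cbd-1, perm-2 and perm-4. CBD-1 is a protein with chitin-binding domains on which the layer depends. Its probe set 173142_at read 258, 367 and 257 in embryos, 2.20, -2.27 and -0.00059 in young adults and -3.94 and -4.64 in aging adults. The second probe set, 180976_s_at, read 782, 931 and 631 in embryos, -5.76, 8.81 and -2.21 in young adults and -7.91 and -1.92 in aging adults. Both probe sets were thus high in every embryo pool and near 0 in every adult pool, with no overlap. cbd-1 fell in young adults against embryos by at least 5.13-fold after scaling and at least 15.2-fold on the deposited scale (adjusted p = 0.000843, limma). Aging adults against embryos showed a fall of at least 8.50-fold and at least 15.0-fold (adjusted p = 0.000552, limma).

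PERM-2 and PERM-4 are secreted proteins that join CBD-1 in the vitelline layer. The probe set 186231_at of perm-2 read 12.9, 16.5 and 14.0 in embryos, 4147, 4270.3 and 5924 in young adults and 7302 and 7099 in aging adults. Its 186232_s_at read -15.5, -16.3 and -4.74 in embryos, 5883, 6061 and 9189 in young adults and 8960.0 and 8939 in aging adults. All 5 adult pools were therefore far above all 3 embryo pools on both probe sets. perm-2 rose in young adults against embryos by at least 660.2-fold after scaling and at least 223-fold on the deposited scale (adjusted p = 3.08e-08, limma). The bounds for aging adults against embryos were at least 553-fold and at least 314-fold (adjusted p = 7.39e-08, limma).

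For perm-4 the brightest probe set, 171741_x_at, read 74.2, 56.7 and 67.8 in embryos, 8340.3, 9105 and 12127 in young adults and 13082 and 13367 in aging adults. It is the 1 perm-4 probe set above noise on every embryo array, and its mean was 149-fold higher in young adults than in embryos on the deposited scale and 437-fold higher after scaling (adjusted p = 6.48e-07 over probe sets, limma). The ending _x_at marks a probe set whose probes may also bind other transcripts. The probe set 173245_s_at read -3.43, -14.3 and 0.51 in embryos, 6596, 7189 and 9670.2 in young adults and 10231 and 10166 in aging adults. The probe set 186023_s_at read 27.5, 10.9 and 16.8 in embryos, of which the first alone was above noise, 5339, 5881 and 7786 in young adults and 8962 and 8622 in aging adults. These 3 probe sets separate every adult pool from every embryo pool. The fourth, 173340_at, stayed below noise on all 8 arrays, at -4.50 to 7.13 in embryos and 11.2 to 19.7 in adults. Its adult values too were above its embryo values, but with no reading above noise it does not bear on the level of the gene. As a gene, perm-4 was higher in young adults than in embryos (adjusted p = 0.000152, limma) and in aging adults than in embryos (adjusted p = 0.000401, limma). Without the probe sets ending in _s_at and _x_at only 173340_at is left for it, and the call in aging adults against embryos ended (adjusted p = 0.101). The call in young adults against embryos held under all 19 alternatives, with adjusted p up to 0.0482. The smallest of these differences, 6.71 (log2), is again that of 173340_at alone, and so is no support for the gene.

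Between the adult ages neither gene passed the test. Aging minus young was -0.25 for perm-2 (log2, SE 0.18, adjusted p = 0.439, limma) and -0.30 for perm-4 (log2, SE 1.36, adjusted p = 0.916, limma). The sign depends on the scaling, since without division by the array median the same difference was 0.49 for perm-2 and 0.45 for perm-4, and quantile normalization gave perm-2 a called increase of 0.62 (adjusted p = 0.0274). The intervals (95%) of the difference after scaling were -0.67 to 0.16 for perm-2 and -3.53 to 2.93 for perm-4. The fit takes a gene's spread from all groups together. The perm-4 interval thus carries the spread of its embryo levels below noise, at 0.0999, 0.00514 and 0.175 array medians. Its adult levels lay closer together, at 311, 311 and 397 array medians in young and 260 and 289 in aging adults. On 171741_x_at, above noise on every array, aging minus young was -0.31 (log2, SE 0.21, adjusted p = 0.436 over probe sets, limma).

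perm-4 (C44B12.5) and perm-2 (C44B12.1) lie side by side on chromosome IV, with 0 protein-coding genes between them in the gene order of RefSeq assembly WBcel235. The genes measured around them were mixed. ost-1, related to mammalian osteonectin of the extracellular matrix, was above noise on all 8 arrays, and C44B12.6 and ets-8 were on none. srx-14 and C50A2.3 were above noise on 3 of the 5 adult arrays and on no embryo array, and both passed as higher in young adults against embryos (adjusted p = 0.0099 and 0.0149, limma). By their log2 values over the 8 arrays, with values below noise raised to the noise level, the gene most like perm-2 among 5936 genes above noise on every adult array was perm-4, and the reverse held for perm-4. Pearson's r was 1.00 for this pair, but 352 genes had an r over 0.99 with perm-2, and the 8 points fall into 2 clusters, embryos and adults. The next most alike were C10G8.4 and skpo-1, a haem peroxidase, for perm-2 and ule-4 and F55B11.2 for perm-4. This comparison among adult-high genes was added after the values were seen.

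The chitin layer is made by the chitin synthase encoded by chs-1. Its probe set read 46.1, 51.7 and 48.1 in embryos, -0.73, -10.2 and 1.32 in young adults and 3.13 and 8.61 in aging adults. Every embryo pool was above its noise level and no adult pool was, and on the deposited scale the embryo mean was at least 1.56-fold above young adults and at least 1.54-fold above aging adults. chs-1 passed the test in young adults against embryos (log2 difference -8.34, SE 2.02, adjusted p = 0.0116, limma) and missed it in aging adults against embryos (-2.41, adjusted p = 0.430). The first call depends on values under the noise level: the embryo level of 0.798 ± 0.027 array medians (SD, n = 3) lies below the noise level of young adults on that scale, and with values below noise raised to it the sign turned, to 0.92 (adjusted p = 4.48e-06).

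PERM-1 and PERM-5 are needed for the permeability barrier beneath the chitin and proteoglycan layers. perm-1 read 59.3, 57.9 and 47.6 in embryos, 8.08, 6.78 and -8.38 in young adults and 19.3 and -3.03 in aging adults. The embryo pools stood above both adult groups without overlap, by at least 1.75-fold against young and at least 1.73-fold against aging adults on the deposited scale. Neither comparison passed the test after scaling, at -4.50 (log2, SE 3.52, adjusted p = 0.315, limma) in young adults and -6.14 (SE 3.93, adjusted p = 0.252, limma) in aging adults against embryos. With values below noise raised to it these differences became 0.75 and 0.025, so no fold change can be given on the scaled values.

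perm-5 encodes a protein with a predicted lipid-binding domain. The probe set 174319_at read 479.6, 676 and 487 in embryos, 269, 332 and 384 in young adults and 1057 and 1034 in aging adults. On 180355_at the readings were 393, 348 and 374 in embryos, 111, 155 and 89.5 in young adults and 585 and 681 in aging adults. The aging pools were above all others on both probe sets, and the young pools were the lowest on the deposited scale. After division by the array median perm-5 stood at 7.37 ± 0.48 array medians in embryos (SD, n = 3), 9.46 ± 1.23 in young adults (SD, n = 3) and 23.6 ± 3.22 in aging adults (SD, n = 2). It was 2.50-fold higher in aging than in young adults (log2 difference 1.32, SE 0.16, adjusted p = 0.00548, limma), and both aging pools exceeded all 3 young pools. This call held under all 19 alternatives run, with differences of 0.94 to 2.07 and adjusted p up to 0.0415. The probe sets each passed the test over all probe sets, by 0.94 (adjusted p = 0.0231, limma) for 174319_at and 1.70 (adjusted p = 0.0139, limma) for 180355_at.

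Against embryos, perm-5 was 3.19-fold higher in aging adults (log2 difference 1.67, SE 0.16, adjusted p = 0.000233, limma). In young adults against embryos the difference was 0.35 (SE 0.14, adjusted p = 0.0754, limma) and its sign rested on the scaling, since without division by the median it was -1.21 (adjusted p = 0.000324). The probe sets also disagreed there, at 0.83 for 174319_at (adjusted p = 0.00333, limma) and -0.12 for 180355_at (adjusted p = 0.692, limma). The gene whose values over the 8 arrays were most like those of perm-5, among 9277 genes above noise on every embryo array, was cls-1, a microtubule-binding CLASP protein (Pearson's r 0.991, n = 8), followed by M162.5 and ztf-27. cls-1 stood at 6.12 array medians in embryos, 7.82 in young adults and 23.2 in aging adults.

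EGG-1 and EGG-3 act at the oocyte surface. EGG-1, a membrane protein with LDL-receptor repeats, is needed for sperm to enter, and EGG-3, an inactive relative of tyrosine phosphatases, holds chitin synthase and the kinase MBK-2 at the cortex until the egg is activated. egg-1 read 109, 87.5 and 93.0 in embryos, 10.5, 7.53 and 13.3 in young adults and 8.14 and 10.9 in aging adults. Every adult pool was below every embryo pool and below its own noise level. egg-1 fell in young adults against embryos by at least 1.04-fold after scaling and at least 3.08-fold on the deposited scale (adjusted p = 0.00799, limma). The fall in aging adults against embryos was at least 1.73-fold after scaling and at least 3.04-fold on the deposited scale (adjusted p = 0.00276, limma). The call in young adults against embryos ended with values below noise raised to it, where the difference was -0.06 (adjusted p = 0.770). egg-2, the close relative of egg-1 with the same role in fertilization, was above noise on all 8 arrays, at 111, 112 and 101 in embryos, 30.0, 47.3 and 41.9 in young adults and 69.4 and 55.9 in aging adults. It passed the test in neither adult group against embryos, at 0.10 (log2, SE 0.20, adjusted p = 0.711, limma) in young and 0.02 (SE 0.22, adjusted p = 0.948, limma) in aging adults. On the deposited scale its mean was 2.72-fold lower in young adults than in embryos, and there it passed the test as lower.

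egg-3 read 394, 492 and 353 in embryos, 0.33, -0.58 and -7.29 in young adults and 7.25 and 20.8 in aging adults. The embryo pools were all far above the adult pools, of which none passed its noise level. egg-3 fell in young adults against embryos by at least 4.44-fold after scaling and at least 13.1-fold on the deposited scale (adjusted p = 0.000658, limma), under all 18 alternatives that could be run for it. Set against aging adults, the embryo level was at least 7.35-fold higher after scaling and at least 12.9-fold higher on the deposited scale, yet the fit missed the threshold (log2 difference -4.24, SE 1.73, adjusted p = 0.0893, limma). With values below noise raised to it the same comparison passed, at -2.88 (adjusted p = 1.76e-08), as it did when only the aging and embryo arrays were fitted (adjusted p = 0.00272) and without young adults replicate 1 (adjusted p = 0.00757). EGG-4 and EGG-5, partners of EGG-3 that bind MBK-2, have near-identical genes, and the 2 probe sets they share, which were left out of the tests, spanned 345 to 603 on embryo arrays, 5.50 to 14.8 on young and -0.59 to 25.5 on aging adult arrays. These readings too were above noise in embryos alone.

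The yolk receptor of the oocyte, a member of the LDL receptor family, is encoded by rme-2. It read 121, 131 and 118 in embryos, 5.80, -13.5 and -21.4 in young adults and -13.2 and -2.33 in aging adults. The groups did not overlap, and no adult pool passed its noise level. rme-2 fell in young adults against embryos by at least 1.34-fold after scaling and at least 3.96-fold on the deposited scale (adjusted p = 0.0234, limma). In aging adults against embryos it fell by at least 2.22-fold after scaling and at least 3.90-fold on the deposited scale (adjusted p = 0.0111, limma). The first call was lost when any of 5 arrays was left out, with adjusted p of 0.0601, 0.0595 and 0.0570 without embryo replicates 1, 2 and 3 and of 0.0673 and 0.0635 without young adult replicates 2 and 3. The call in aging adults against embryos ended when either aging array was left out (adjusted p = 0.0552 without replicate 1 and 0.0567 without replicate 2).

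Counted together, 5 of the 9 genes (cbd-1, chs-1, egg-1, egg-3 and rme-2) passed the test as lower and 2 (perm-2 and perm-4) as higher in young adults against embryos. Of all genes 22.5% passed as lower and 31.2% as higher, 53.7% in all. These shares include genes at the floor on every array. One such gene, ets-8, passed as higher by 1.56 through the array medians alone (adjusted p = 0.000837, limma). On the deposited scale 6 members passed as lower and 2 as higher, against 38.7% and 12.7% of all genes. The median log2 difference was -4.50 over the members and 0.38 over all genes, but the fitted values of genes at the floor have no fixed size, and with values below noise raised to it these medians were 0.35 and 1.85. In aging adults against embryos 3 members (cbd-1, egg-1 and rme-2) passed as lower and 3 (perm-2, perm-4 and perm-5) as higher, against 17.8% and 27.1% of all genes, and 45% of all genes in either direction. The groups did not overlap for 6 members as lower and 3 as higher in either adult group against embryos, where over all genes the shares were 27.5% and 38.7% for young adults and 29.8% and 44.4% for aging adults. On the deposited scale 26.2% of all genes passed as lower and 14.7% as higher, and the members' counts were 3 and 3 again. The median was -2.54 over the members and 0.45 over all genes, and 0.025 and 1.12 with values below noise raised to it.

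In aging against young adults 2 members passed as higher and 0 as lower, where 2.74% of all genes passed as higher and 4.44% as lower, 7.18% in all. The 2 were perm-5 and egg-3. For egg-3 both groups lay below noise, so no fold change is given, and its call ended under 11 of 18 alternatives. Groups that did not overlap numbered 4 as lower and 3 as higher, beside 27.5% and 17.2% of all genes, and of these 7 members only perm-4 and perm-5 had both groups above noise. On the deposited scale 15.9% of all genes passed as higher and 1.9% as lower. The medians were -0.30 over the members and -0.01 over all genes, and -0.73 for both with values below noise raised to it. That last value is the difference of the noise levels alone.

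**Figure D2:**
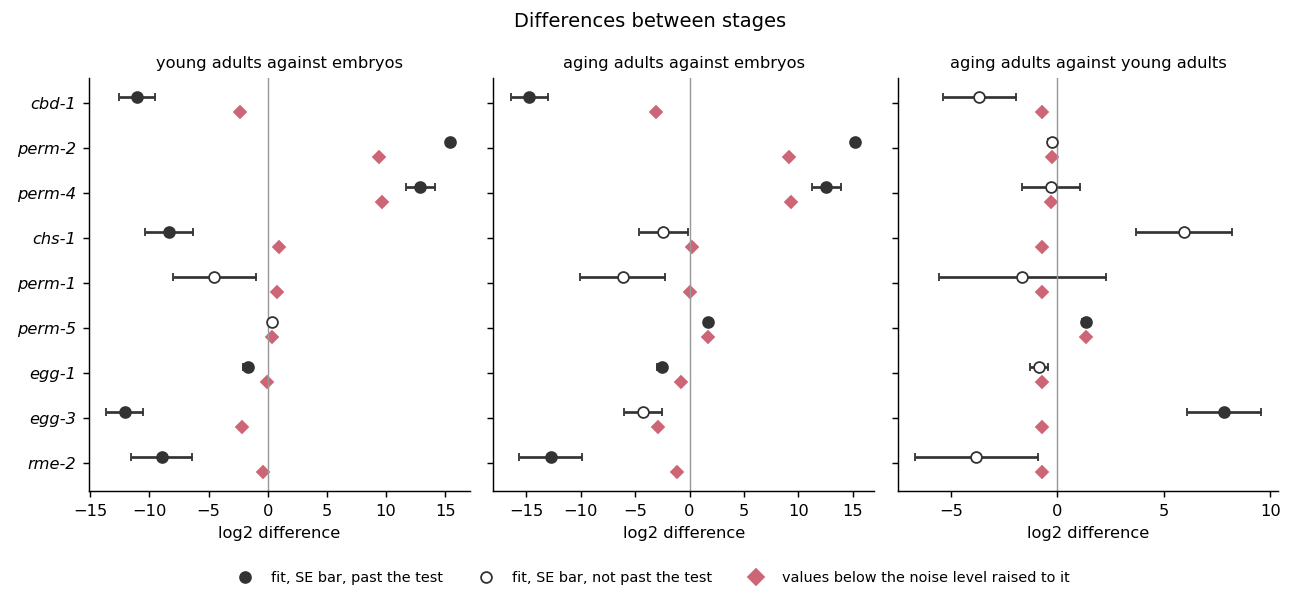
Log2 difference of each member in the 3 comparisons (x axis, later stage minus earlier; 1 row per gene, each panel with its own scale), as circles with SE bars, filled where past the test, and diamonds for the fit with values below noise raised to it. The diamonds keep the sign of the circles for cbd-1, perm-2, perm-4, perm-5, egg-1, egg-3 and rme-2 against embryos, whereas chs-1 and perm-1 turn to the right of 0.

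Genes of the same pathways were followed through 5 lists written by known function. Their counts are to be read beside the shares of all genes. In young adults against embryos 22.5% passed as lower and 31.2% as higher, and 38.7% and 12.7% on the deposited scale. For aging adults against embryos these were 17.8% and 27.1%, and 26.2% and 14.7% on the deposited scale. Between the adult ages they were 4.44% and 2.74%, and 1.9% and 15.9% on the deposited scale. Of 16 genes for chitin precursors and eggshell proteoglycans, 5 passed as lower and 2 as higher in young adults against embryos, with a median of -0.36. The proteoglycan core protein gene cpg-1 had probe sets at 0.69 ± 6.33 and 35.7 ± 23.0 in young adults (SD, n = 3), against 1934 ± 163 and 2886 ± 499 in embryos (SD, n = 3). Its second probe set was 31.1-fold lower in young adults than in embryos after scaling and 80.8-fold lower by the mean deposited intensity (adjusted p = 0.000148 over probe sets, limma). cpg-2, the other such core protein, fell by at least 10.1-fold after scaling and at least 29.7-fold on the deposited scale (adjusted p = 9.14e-05, limma). gna-2, which makes the N-acetylglucosamine used for chitin, read 37.03, 8.85 and 19.8 in young adults, of which the first alone was above noise, against 488, 502 and 453 in embryos, and passed as lower (adjusted p = 0.00193, limma). sqv-2, a galactosyltransferase of the chondroitin linker, was higher by 1.04 (adjusted p = 0.000734, limma). The other gene past the test as higher, sqv-6, read -25.8 to -3.82 over the 8 arrays and so was never detected. Its difference of 1.56 is only that of the floor divided by the array medians. The call of sqv-2 rests on the scaling, since on the deposited scale 15 of the 16 passed as lower and 0 as higher.

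Of 8 genes for the lipids of the permeability barrier, 1 passed as lower and 1 as higher in young adults against embryos, with a median of 0.02. dgtr-1, an acyl transferase homologue, was the lower (log2 difference -1.84, adjusted p = 0.0248, limma), by at least 1.92-fold on the deposited scale, while its scaled embryo level lay under the noise level of young adults. emb-8, the reductase that serves cytochrome P450 enzymes, was the higher, by 1.29 in young adults (adjusted p = 0.00209, limma) and by 2.15 in aging adults (adjusted p = 0.00046, limma) against embryos. For young adults this too rests on the scaling, since on the deposited scale 5 of the 8 passed as lower and 0 as higher. In aging against young adults 1 of the 8 passed as higher and 0 as lower, and 3 and 0 on the deposited scale. dgtr-1 read 33.1 and 115 in aging adults, of which the second alone was above noise. In young adults it read 4.73, 5.33 and 7.21 (log2 difference 2.70, adjusted p = 0.0467 over probe sets, limma). Neither perm-1 nor perm-5 was counted in this list.

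Among 7 measured genes of egg activation, 6 passed as lower and 0 as higher in young adults against embryos, with a median of -1.25, and with values below noise raised to it the counts were again 6 and 0. They include egg-6, a leucine-rich repeat membrane protein, which fell by at least 5.56-fold after scaling (adjusted p = 0.000752, limma), and the separase gene sep-1, which fell by at least 2.91-fold (adjusted p = 0.023, limma). mat-3, a subunit of the anaphase-promoting complex, fell by at least 2.57-fold (adjusted p = 0.000817, limma), and the syntaxin gene syx-4 by at least 1.52-fold (adjusted p = 0.0341, limma). The gene not past the test was egg-2, but on the deposited scale all 7 passed as lower and 0 as higher. In aging adults against embryos 3 of the 7 passed as lower and 0 as higher, and on the deposited scale 6 as lower and 0 as higher.

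The 5 measured yolk protein genes all passed as higher in both adult groups against embryos, with a median of 14.30 in young adults, and this count held on the deposited scale. vit-2 read 2.00, -6.92 and -7.29 in embryos, 9620.4, 9660.4 and 9307 in young adults and 9503 and 9053 in aging adults. The genes of the ligands were thus far above noise in the same pools in which rme-2, the gene of their receptor, was below it. The rise in young adults against embryos was at least 1103-fold for vit-2 (adjusted p = 0.000257, limma), at least 1811-fold for vit-5 (adjusted p = 0.000274, limma) and at least 1678-fold for vit-4 (adjusted p = 0.000274, limma) after scaling. All probe sets of vit-4 and vit-5 end in _x_at, and other probe sets are annotated to both genes, so their values may not be independent. vit-6, with a probe set above noise in embryos, passed as well (adjusted p = 7.45e-05, limma).

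The 16 genes of endocytosis and recycling, the machinery that moves such receptors in the oocyte and in other tissues, had a median of 0.24 in young adults against embryos. Of these 2 passed as lower and 3 as higher, or 12.5% and 18.8%, against 22.5% and 31.2% of all genes. rme-1, an ATPase of the recycling endosome, was higher by 1.05 (adjusted p = 0.00454, limma), rab-11.1, a GTPase of the same compartment, by 1.04 (adjusted p = 0.00643, limma) and rab-5, a GTPase of early endosomes, by 0.57 (adjusted p = 0.0112, limma). ehs-1, an adaptor of coated vesicles, was lower (-0.94, adjusted p = 0.00229, limma). In aging adults against embryos 10 passed as higher and 0 as lower. Between the adult ages rme-1 alone passed the test after scaling. It read 2788 and 3386 in aging adults, against 1031, 844 and 1239.6 in young adults, on its probe set 174746_at (log2 difference of the gene 1.18, adjusted p = 0.0298, limma). These counts rest on the scaling, as on the deposited scale 14 of the 16 passed as lower and 0 as higher in young adults against embryos, 3 as lower and 1 as higher in aging adults against embryos, and 0 as lower and 13 as higher in aging against young adults.

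**Figure D3:**
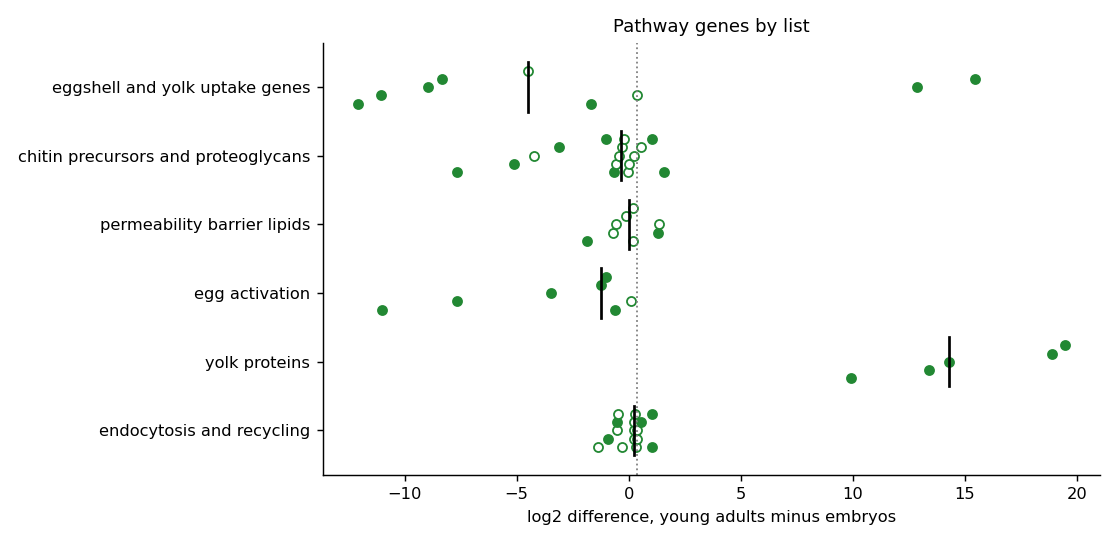
Log2 difference of young adults minus embryos (x axis) for each measured gene of the members and of the 5 pathway lists (rows), filled where past the test; the bar is the median of a list and the dotted line the median of all genes, 0.38. The 5 yolk protein genes lie from 9.91 to 19.47, the endocytosis genes have a median of 0.24, and the members stand on both sides of it.

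Marker genes were used to check the labels. All 10 oocyte and maternal RNA markers and all 11 germ line markers were above noise in embryos, and 0 of either list was in young adults. In aging adults 3 oocyte markers, the RNA-binding protein genes oma-2, pos-1 and mex-3, and 1 germ line marker, the helicase gene glh-1, were above noise on both arrays. The summed normalized level of the oocyte list lay at 172 to 227 array medians for embryos, 1.78 to 3.38 for young adults and 6.03 to 6.04 for aging adults. For the germ line list it lay at 44.03 to 61.4 for embryos, 2.28 to 3.69 for young adults and 3.21 to 4.68 for aging adults. Of 10 genes listed as zygotic embryo markers, 8 to 9 were above noise on an embryo array, with 3 to 4 for young adults and 4 to 5 for aging adults. Among them end-3 was below noise on every embryo array, and end-1, pha-4 and pal-1 were above noise on every adult array. The list therefore does not mark RNA made by the embryo alone. In young adults against embryos 6 of them passed as lower and 1 as higher. Their sums were 40.8 to 60.1 for embryos, 8.18 to 12.6 for young adults and 9.07 to 11.7 for aging adults. The 6 members seen in embryos alone were thus above noise there along with most genes of all 3 lists. Their embryo levels differed. In array medians cbd-1 and egg-3 stood at 7.85 and 6.77, egg-1 and rme-2 at 1.60 and 2.03, and chs-1 and perm-1 at 0.798 and 0.906. On its probe set 175810_at pos-1 read 3302, 4101 and 3101 in embryos, -2.58, -2.99 and 11.2 in young adults and 88.2 and 82.6 in aging adults. The other 7 oocyte markers, like the 6 members, were above noise on no aging adult array. Which of the 6 members' transcripts in embryos came from the mother and which from the embryo was not tested.

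Of 4 markers of the gonad sheath, the somatic cells around the oocytes, inx-8 and inx-9 had the pattern of perm-2 and perm-4. Both were above noise on every adult array and on no embryo array. The sheath innexin gene inx-8 was below noise in embryos and read 1343, 1508 and 2181 in young adults and 2761 and 2699 in aging adults. It rose in young adults against embryos by at least 190.1-fold after scaling and at least 64.2-fold on the deposited scale (adjusted p = 7.22e-06, limma), and inx-9 by at least 24.9-fold and at least 8.43-fold (adjusted p = 1.87e-05, limma). The others differed. ceh-18, whose probe set 187890_at was above noise on every embryo array, passed as higher too, and lim-7 as lower (-1.01, adjusted p = 0.00347, limma). The summed level of the 4 ran over 5.54 to 6.57 array medians for embryos, 86.9 to 115 for young adults and 94.6 to 109.8 for aging adults. Most of the adult sum was inx-8, with a mean of 80.7 in young and 79.1 in aging adults. Most intestine markers were higher in adults as well, with 4 of 5 past the test as higher in young adults against embryos. Their sums were 78.6 to 106 for embryos, 746 to 825 for young adults and 419 to 467 for aging adults. Body wall muscle markers were also higher, 4 of 5 past the test, with sums of 81.0 to 98.2 for embryos, 577 to 945 for young adults and 256 to 316 for aging adults. Of 5 neuron markers 4 passed as higher and 1 as lower, with sums of 36.8 to 40.3 for embryos, 67.5 to 98.7 for young adults and 78.7 to 92.4 for aging adults. The neuron calls rest on the scaling. Mean deposited intensity of young adults over embryos was 0.83 and 0.54 for rab-3, 1.02 and 0.82 for snb-1, 0.71 for sng-1 and 0.92 to 1.05 for unc-17. Among intestine and muscle markers past the test this ratio varied, from 0.92 for ifb-2 and 1.30 for act-5 to 4.47 for ges-1, 5.52 for asp-1 and 7.89 for unc-27. The part of any of these tissues in the levels of perm-2 and perm-4 was not tested. Of 10 sperm markers 1 was above noise on embryo arrays, 0 on young adult arrays and 0 to 2 on aging adult arrays.

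**Figure D4:**
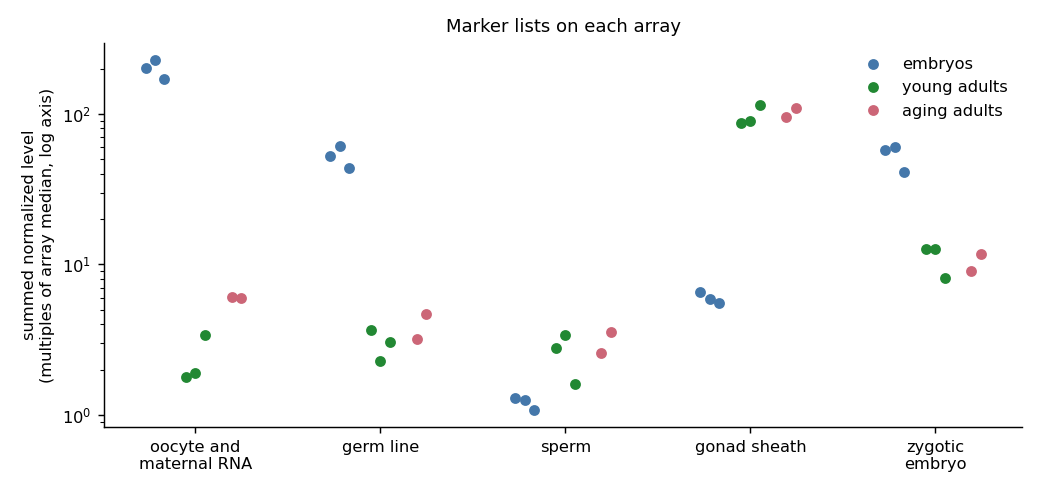
Summed normalized level (multiples of the array median, log axis) of 5 marker lists on each array, with 1 point per array, coloured by stage. Oocyte and germ line sums are highest in embryos, at 172 to 227 and 44.03 to 61.4, and gonad sheath sums are highest in adults, at 86.9 to 115.

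Likeness over the 8 arrays was less telling for the embryo genes. For cbd-1 the nearest of 9277 genes were F32D1.7, fbxb-15 and dscc-1 and for egg-3 they were fbxc-18, inx-14, a germ line innexin, and Y37E11AL.3, but 558 genes had an r over 0.99 with each of these members. Most adult values in this comparison were at the noise level. For perm-1, chs-1, egg-1 and rme-2 the nearest genes share mainly the noise levels of the arrays and are not named.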

How the data were processed

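RNA of pooled nematodes was hybridized to Affymetrix C. elegans arrays, with 3 arrays of embryos, 3 of young adults and 2 of aging adults ("old" in the labels). Per the study's methods, the authors read the scans with the GeneChip Operating Software before import to Rosetta Resolver. Their deposited table gives intensity on a linear scale, after removal of background and with negative values kept. A second deposited table holds the authors' fold changes and p-values for each pair of stages and was not used. By the array annotation 20766 probe sets belong to 1 gene, 887 to several and 895 to none, and those of 1 gene were tested. The genome build is not given in the sources used here, so no coordinates are printed, and gene order is that of RefSeq WBcel235.

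As in the study's methods, a floor of 0.01 was applied and every array was scaled to its median. After log2, a gene took the median of its probe sets. limma 3.58.1 (R 4.3.3; lmFit and eBayes with a variance trend, no covariates) was fitted to the 8 arrays, and 2-sided p-values were adjusted (Benjamini-Hochberg) across 17118 genes, with 0.05 as the threshold. The method was tested on simulated data. Precision is limited by the number of arrays. The labels do not say how the pools of a group were kept apart, so p-values measure only the spread between these pools.

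Named were all members and up to 4 genes of each pathway list with the largest change past the test between young adults and embryos (or the 2 of lowest adjusted p if none passed). The rule also covered the 3 genes most like each member above noise in embryos, but those of perm-1, chs-1, egg-1 and rme-2 were left out. Other genes named (those around perm-2 and perm-4, those of shared probe sets, egg-2 and the markers given with values) were picked after their values were seen. The members and lists were chosen with earlier results of these data known. The alternatives were quantile normalization, no rescaling, scaling to the 75th percentile, values below noise raised to it, log2 of the value plus 0.1, a noise filter on 2 arrays, only the 2 groups compared, a replicate block, the brightest probe set for each gene, leaving out probe sets whose names end in _s_at or _x_at, no variance trend, and each array left out in turn.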

Additional observations from a re-analysis of the deposited data

How the results depend on the processing

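Over 510 values of single members under the alternatives, 462 kept their direction and their side of the threshold, 14 reversed, 14 gained a call and 20 lost it. cbd-1 and perm-2 against embryos and perm-5 in aging against young adults kept their calls under every alternative run. With values below noise raised to it, the members past the test in young adults against embryos numbered 3 as lower and 4 as higher, beside 19.2% and 67.3% of all genes, and in aging against young adults 6 as lower and 1 as higher, beside 60.1% and 6.96% of all genes. This setting reversed perm-1 (0.75) and chs-1 (0.92) in young adults against embryos, perm-1 (0.025) and chs-1 (0.20) in aging adults against embryos, and chs-1 and egg-3 (-0.73 each) in aging against young adults. By construction it sets the floor higher, in array medians, in young adults than in embryos or aging adults. The 6 members lower in aging against young adults were below noise on every adult array. Their shared difference of -0.73 is only that of the noise levels, so these 6 calls say nothing about the genes. In aging adults against embryos 5 members were lower with log2 of the value plus 0.1, where 20.7% of all genes were, and with only the 2 groups compared, where 23.7% were. In aging against young adults 1 member was higher with only the 2 groups compared, with no variance trend, and with the _s_at and _x_at probe sets left out, beside 1.33%, 1.61% and 2% of all genes.

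No rescaling reversed perm-5 in young adults against embryos (-1.21) and perm-2 (0.49) and perm-4 (0.45) in aging against young adults, as did quantile normalization for these 2 (0.62 and 0.56). Leaving out 1 array at a time gave 0 to 1 members lower and 1 to 2 higher in aging against young adults, and moved perm-1 there between -7.01 and 3.72, with the sign reversed without young adult replicate 1 (0.06) and without aging adult replicate 2 (3.72). With 1 aging array left, that array is assumed to vary like the other groups. The causes of these changes were not tested. With a replicate block 1 member, beside 1% of all genes, was higher in aging against young adults and perm-4 was reversed there (0.25). The labels do not say that a replicate number pairs the pools, and the deviations of arrays with the same number correlated at -0.0127 to 0.0041, so the numbers were not used as pairs. Low signal limits chs-1, perm-1, egg-1 and rme-2, whose embryo intensities were at most 131.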
